A study of Mus musculus with 20 samples.

Results

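Microglia that turn from their resting state into disease-associated microglia (DAM) switch on a set of secreted, surface and lysosomal proteins, and 9 genes for such effectors are described here: Gpnmb, Spp1, Cst7, Cd9, Cd63, Csf1, Cpd, Sdc3 and Ank. They are 9 of the 39017 gene identifiers that were counted. The 9 were selected on their values in microglia after fluid percussion injury (FPI) against sham, with results of these libraries known, so their difference between FPI and sham microglia is given as a description and no p-value is attached to it. Total RNA was sequenced from microglia and astrocytes of the left forebrain, on the side of the injury, of adult male C57BL/6J mice aged 3 to 4 months. All mice had a craniectomy, and 7 days earlier they had received either lateral FPI, a pulse of fluid on the exposed dura, or the sham procedure without the pulse. The mice were of one inbred strain and one sex. Microglia had been sorted as CD11b+ cells with intermediate CD45 and astrocytes as ACSA-2+ cells, which gave 5 libraries per cell type and condition and 20 in all. Injured mice were kept only where they were slow to right themselves, a sign of a stronger injury, and 1 time point was sampled.

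DAM were first described around amyloid plaques, where microglia lower their homeostatic genes and, through the receptor Trem2, raise genes for lipid handling, lysosomes and adhesion. Gpnmb is a transmembrane glycoprotein of lysosomes and the cell surface, Spp1 encodes the secreted phosphoprotein osteopontin, which binds integrins and Cd44, and Cst7 encodes cystatin F, an inhibitor of lysosomal cathepsins. Cd9 and Cd63 are tetraspanins of the plasma membrane and of late endosomes and exosomes, and Csf1 is a ligand of the receptor Csf1r on which microglia depend. Cpd is a membrane carboxypeptidase of the trans-Golgi network, Sdc3 a heparan sulfate proteoglycan of the syndecan family, and Ank a membrane protein that moves pyrophosphate and ATP out of cells.

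The libraries held 5623349 to 13110857 counts, with a median of 8138608.5. Microglial marker genes summed to 18099 to 30930 CPM in microglia and to 104 to 271 CPM in astrocytes, where CPM is counts scaled to a TMM-normalized library total of 1000000. Astrocyte marker genes summed to 9801 to 32486 CPM in astrocytes and to 296 to 642 CPM in microglia. The astrocyte libraries also held oligodendrocyte markers at 1844 to 19048 CPM and markers of pericytes and fibroblasts at 328 to 4769 CPM. Microglia libraries 4 and 5 of each condition carry names of another series than libraries 1 to 3, and the name of FPI astrocyte library 5 ends like those of microglia and repeats the animal of FPI astrocyte library 2, while its microglial markers summed to 234 CPM and its astrocyte markers to 15822 CPM. Animal numbers in the names tie 3 microglia libraries to 3 astrocyte libraries. The labels do not state more of how replicates were collected, so p-values measure the spread between these libraries. In sorted bulk RNA, a change in the number of cells that express a gene and a change in RNA per cell cannot be told apart.

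Gpnmb was close to the floor of detection in sham microglia and was counted in every FPI library. The gene (ENSMUSG00000029816) lies at chr6:49036546-49070929 on the plus strand of GRCm38. In sham microglia libraries 1 to 5 its level was 0.379, 0.0710, 0.338, 0.442 and 0 CPM, which is 11 counts in all. FPI microglia held 24.7, 30.7, 5.17, 5.07 and 8.65 CPM, or 604 counts. All FPI libraries lay above all sham libraries, and FPI libraries 1 and 2 stood above the other three. The group means were 0.246 ± 0.197 CPM in sham (SD, n = 5) and 14.9 CPM in FPI microglia with a coefficient of variation of 80.8% (n = 5), and the fitted log2 fold change was 5.84 with an SE of 0.69 (95% interval 4.49 to 7.19). With 11 counts in sham the size of this fold is uncertain.

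Spp1 had the widest spread of the 9 genes in FPI microglia. It lies at chr5:104435118-104441050 on the plus strand (ENSMUSG00000029304), and its exons share bases with those of Gm42793, another annotated gene on the same strand, from which reads may not be told apart. Sham microglia held 3.92, 4.54, 3.94, 4.64 and 30.7 CPM, so library 5 stood apart from 4 libraries of nearly equal level. FPI microglia held 204.3, 151.3, 19.3, 22.1 and 83.9 CPM. FPI libraries 3 and 4 lay below sham library 5 and above the other 4 sham libraries, and the 2 groups therefore overlapped. The means were 9.55 ± 11.8 CPM in sham and 96.2 ± 81.1 CPM in FPI microglia (SD, n = 5 each), with a log2 fold change of 3.46 ± 0.65 (SE). Without sham library 5 the fitted log2 fold change was 4.50.

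Cst7 followed the same libraries within a narrower range. It lies at chr2:150570415-150578944 on the plus strand (ENSMUSG00000068129). Its level was 10.4, 2.48, 5.86, 5.63 and 18.3 CPM in sham and 60.2, 59.1, 29.5, 23.2 and 38.9 CPM in FPI microglia. The groups did not overlap, and sham library 5 was again the highest of its group. The log2 fold change was 2.37 ± 0.40 (SE), between means of 8.53 ± 6.15 and 42.2 ± 16.9 CPM (SD, n = 5 each).

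These 3 genes had the largest fold changes of the 9 and libraries 1 and 2 as their highest in FPI microglia, and their promoters are shown, each as 250 bases before and 20 after a RefSeq start of GRCm38.p6, on the plus strand, which carries all 3 genes. All 9 genes had an entry, and Spp1 had 2 starts. Capitals mark the only matches to the motifs searched: AP-1 as TGANTCA in Gpnmb and Cst7, and the PU.1 core GAGGAA and the TATA box TATAAA in Spp1. The windows are chr6:49036268-49036537 for Gpnmb, chr5:104434861-104435130 for the first of 2 starts of Spp1 and chr2:150570165-150570434 for Cst7.
Gpnmb: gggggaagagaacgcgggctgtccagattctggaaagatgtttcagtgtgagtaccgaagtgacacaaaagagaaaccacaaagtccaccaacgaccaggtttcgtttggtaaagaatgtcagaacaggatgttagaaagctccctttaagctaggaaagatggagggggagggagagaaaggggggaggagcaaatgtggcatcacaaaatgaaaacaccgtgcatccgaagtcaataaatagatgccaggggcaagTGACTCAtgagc
Spp1: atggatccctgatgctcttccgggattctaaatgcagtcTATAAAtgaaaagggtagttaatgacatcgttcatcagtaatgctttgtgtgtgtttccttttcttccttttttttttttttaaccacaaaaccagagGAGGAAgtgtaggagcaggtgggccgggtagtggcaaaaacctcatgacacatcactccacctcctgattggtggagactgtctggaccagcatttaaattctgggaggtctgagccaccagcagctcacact
Cst7: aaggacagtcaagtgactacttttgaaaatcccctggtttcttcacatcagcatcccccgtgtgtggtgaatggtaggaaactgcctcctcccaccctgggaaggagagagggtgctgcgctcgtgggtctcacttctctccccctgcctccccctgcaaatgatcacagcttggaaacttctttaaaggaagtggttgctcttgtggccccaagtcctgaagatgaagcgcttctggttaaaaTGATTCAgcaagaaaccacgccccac
Counted from the start base as 1, the match to AP-1 begins at position 9 in Gpnmb and, with the base before the start as -1, at -6 in Cst7. In Spp1 the PU.1 core begins at -113 and the TATA box at -211. On both strands of all 32851 RefSeq promoters, in windows of 250 bases before to 50 after the start, AP-1 was found in 7.81%, the PU.1 core in 28.3% and TATAAA in 13.6%. Among the 10 member promoters the PU.1 core was also present in Cd63, Cpd and Ank, while the E-box CACGTG and the M-box TCATGTG, which the MiT/TFE factors bind, were in none of these windows. They were in 7.15% and 3.77% of all promoters. A match is a run of letters and says nothing of binding.

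**Figure D1:**
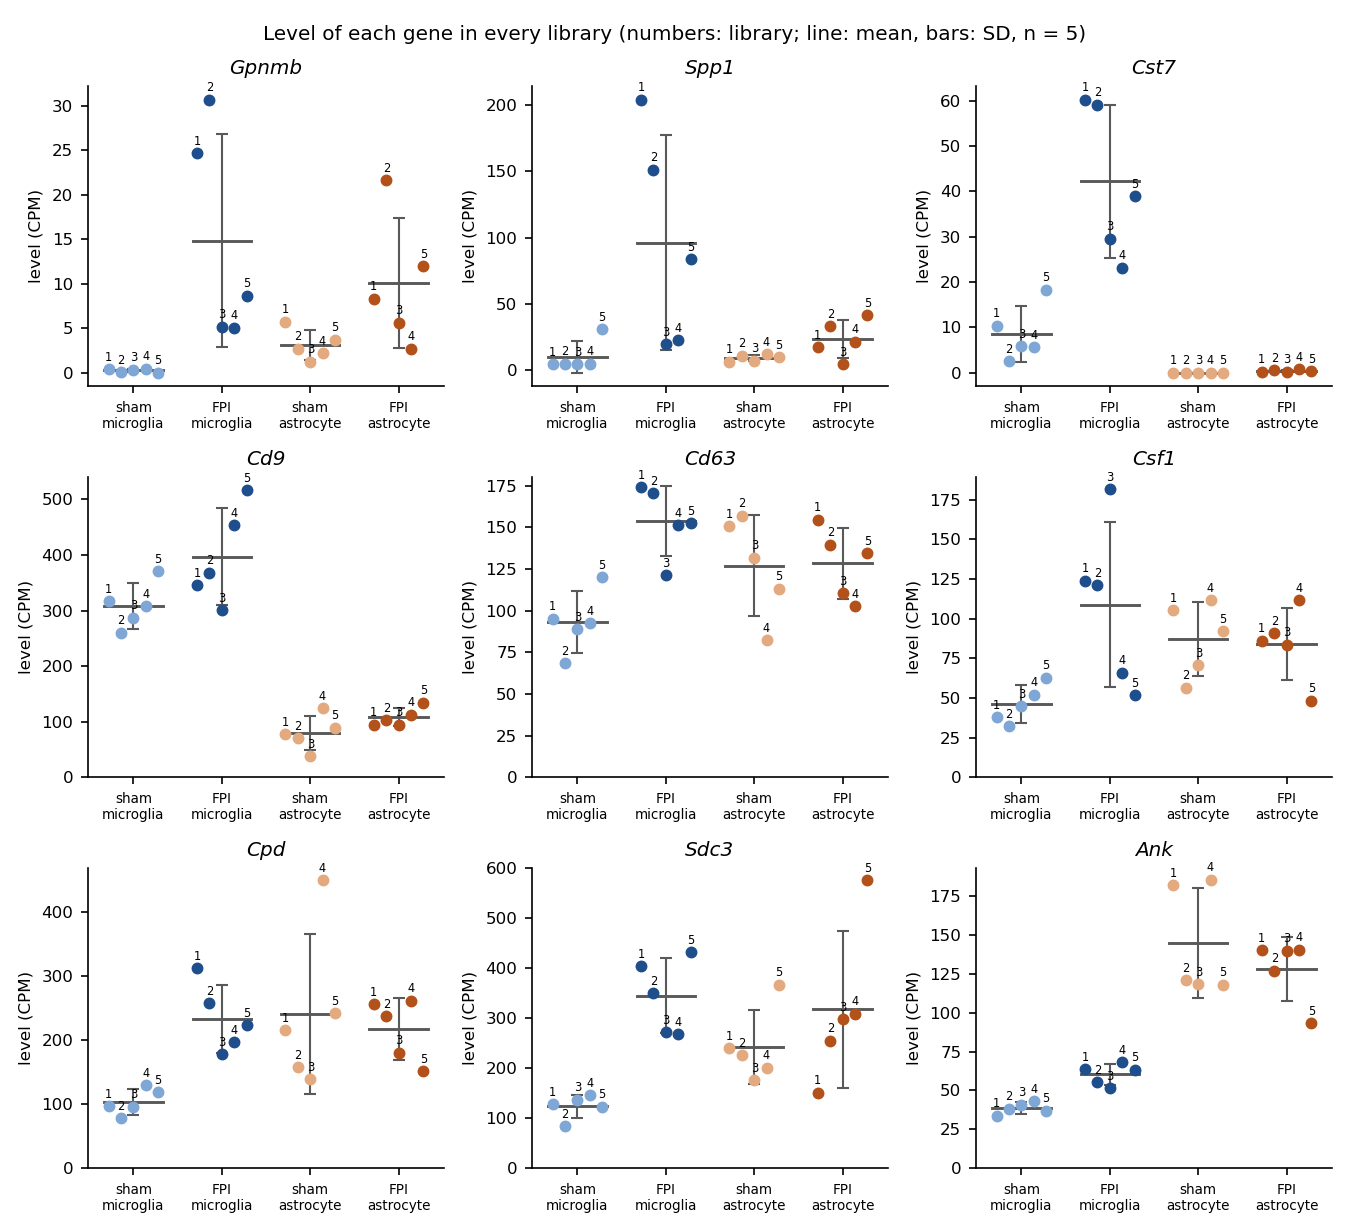
Level of each of the 9 genes in CPM (vertical axis, linear, each gene on its own scale) in the 5 libraries of each group, numbered as in the text, with the mean as a line and the SD as bars. Gpnmb, Spp1 and Cst7 were highest in FPI microglia libraries 1 and 2, while Ank was higher in the astrocytes of both conditions than in microglia.

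The tetraspanins were abundant in every library and differed less between sham and FPI. Cd9 (ENSMUSG00000030342, chr6:125460266-125494791, minus strand) had levels of 317, 260.3, 287, 308 and 371 CPM in sham and 346, 368, 301, 454 and 516 CPM in FPI microglia. The groups overlapped, and the log2 fold change of 0.37 ± 0.15 (SE) was below the 0.6 needed for a call. Per kb of exon, where genes can be compared, Cd9 was the highest of the 9 in microglia at 151 CPM per kb in sham and 194 in FPI. Cd63 (ENSMUSG00000025351, chr10:128900989-128912822, plus strand) had 95.4, 68.6, 89.0, 92.4 and 120.3 CPM in sham and 174, 171, 122, 151 and 153 CPM in FPI microglia. Its lowest FPI library was just above its highest sham library, and the log2 fold change was 0.74 ± 0.15 (SE). Gm26728, on the opposite strand, shares exon bases with Cd9 and had 64 counts in sham and 56 in FPI microglia, against 13461 and 15402 for Cd9, and whether the counting used strand is not given in the sources used here.

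Csf1, the ligand of Csf1r, behaved differently between libraries. It lies at chr3:107741048-107760469 on the minus strand (ENSMUSG00000014599). Sham microglia held 37.9, 32.3, 44.7, 52.1 and 62.7 CPM. FPI microglia held 124, 121, 182, 65.9 and 51.6 CPM. Library 3, among the lowest for Gpnmb and Spp1, was the highest for Csf1, and library 5 of FPI lay inside the sham range. The log2 fold change over all libraries was 1.26 ± 0.27 (SE).

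Cpd, Sdc3 and Ank, the 3 membrane proteins of other families, were higher in each FPI library than in any sham library. Cpd (ENSMUSG00000020841, chr11:76778424-76847018, minus strand) had 97.3, 78.5, 96.2, 129 and 119 CPM in sham and 312, 257, 178, 197 and 224 CPM in FPI microglia, a log2 fold change of 1.18 ± 0.16 (SE). Sdc3 (ENSMUSG00000025743, chr4:130792537-130826319, plus strand) had 128, 84.9, 137, 146 and 124 CPM in sham and 404, 350.2, 273, 268 and 433 CPM in FPI microglia, a log2 fold change of 1.49 ± 0.16 (SE). Gm12970 and Gm26716, which share exon bases with Sdc3 on the opposite strand, had 0 to 2 counts in each microglia group. Ank (ENSMUSG00000022265, chr15:27466677-27594909, plus strand) had 33.9, 38.3, 41.0, 43.3 and 37.0 CPM in sham and 63.6, 55.2, 51.6, 68.2 and 63.4 CPM in FPI microglia. Its log2 fold change was 0.65 ± 0.14 (SE), just past the fold needed for a call, and its libraries were the most alike of the 9 genes in both groups.

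In all, 8 of the 9 genes were called higher in FPI microglia by edgeR's quasi-likelihood test at an adjusted p below 0.1 with a log2 fold change above 0.6 in either direction, and Cd9 was not. Of 12143 genes tested 285 were called (2.35%), 259 of them higher (2.13%). In 6 of the 9 the lowest FPI library was above the highest sham library, as in 2.08% of all genes tested, and Spp1, Cd9 and Csf1 overlapped. The genes were chosen on this contrast, so these counts say nothing more about them. The median log2 fold change was 1.26 over the 9 genes and -0.01 over all genes tested.

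**Figure D2:**
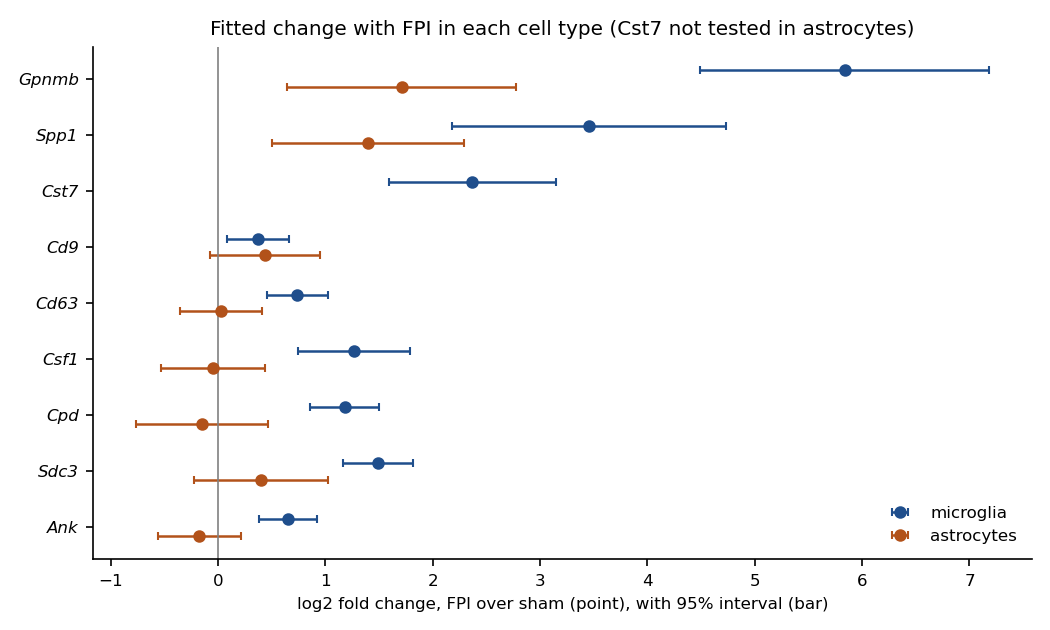
Fitted log2 fold change of FPI over sham (horizontal axis) with its 95% interval for each gene in microglia and in astrocytes, each cell type fitted alone. The microglial changes run from 0.37 for Cd9 to 5.84 for Gpnmb, and in astrocytes the intervals of Gpnmb and Spp1 alone lie above 0.

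The spread between FPI microglia libraries fell into 2 ranges. The highest library exceeded the lowest 10.6-fold for Spp1, 6.06-fold for Gpnmb, 3.52-fold for Csf1 and 2.60-fold for Cst7. For Sdc3, Cpd, Cd9, Cd63 and Ank this ratio was between 1.32 and 1.75. The SD of log2 CPM was 1.57 for Spp1 and 1.23 for Gpnmb, at the 92.4th and 89.3rd percentile of all genes tested, and 0.16 for Ank, at the 8.13th percentile. Low counts widen the spread, so the biological coefficient of variation, fitted over all 10 microglia libraries and thus with sham library 5 of Spp1, was also set against the trend of genes at the same level. It was 0.637 for Spp1, 3.28 times the trend, 1.66 times the trend for Cst7 and 1.63 times for Csf1. For Gpnmb it was 0.553, or 1.34 times the trend. Cd63, Cd9, Cpd and Sdc3 were within 1.02 to 1.14 times the trend, and Ank was at 0.815 of it.

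Over the 5 FPI microglia libraries, 5 genes had libraries 1 and 2 as their 2 highest: Gpnmb, Spp1, Cst7, Cd63 and Cpd. Spp1, Cd63 and Cpd had the same order throughout, with library 1 the highest and then 2, 5, 4 and 3. Cst7 differed from it only in libraries 3 and 4, whose order was exchanged, and Gpnmb in addition in libraries 1 and 2. Sdc3 was highest in library 5 and then in 1 and 2, Ank in library 4, Cd9 in libraries 5 and 4, and Csf1 in library 3. Library 3 was the lowest for 5 genes and among the 2 lowest for 8. Libraries 1 and 2 were the 2 highest for 8.58% of all genes tested and for 21.6% of the 259 genes called higher. This pair thus led more often among the genes called higher than among all, but in a minority of them. The single library most often highest among the 259 was library 5, for 93 genes, against 81 for library 1 and 67 for library 2. With 5 libraries no correlation was computed.

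**Figure D3:**
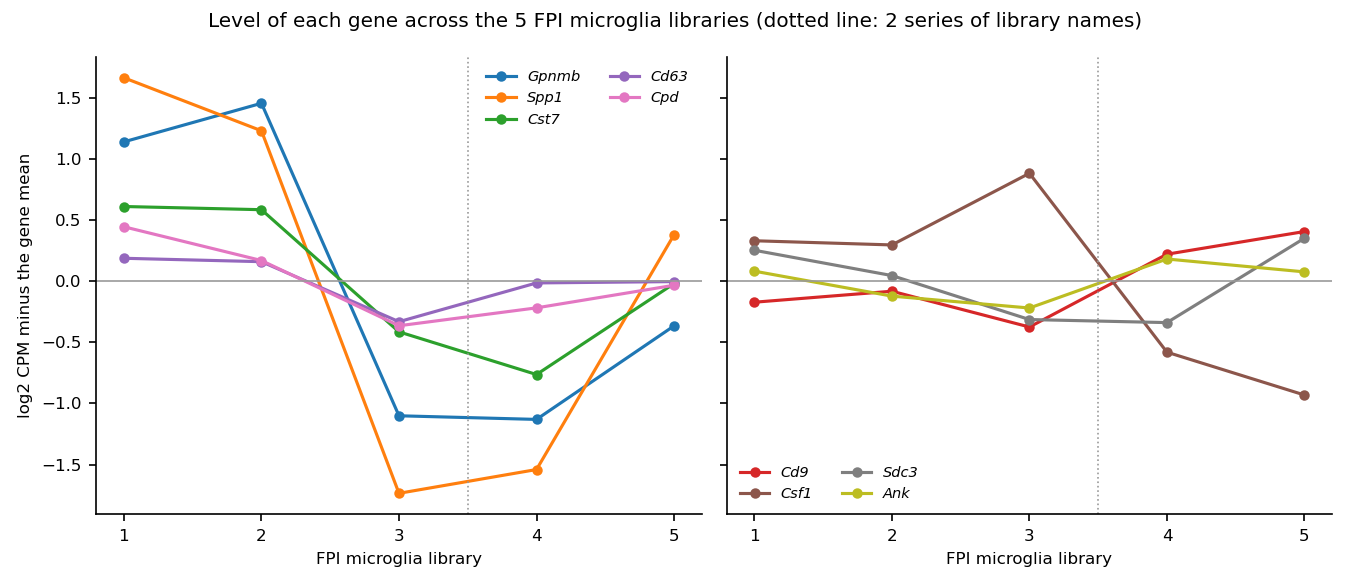
Log2 CPM of each gene minus its mean over the 5 FPI microglia libraries (vertical axis) by library (horizontal axis); lines join the points of a gene and stand for no order in time, and the dotted line parts the 2 series of library names. The left panel holds the 5 genes with libraries 1 and 2 highest, and in the right panel Csf1 peaks in library 3 while Cd9, Sdc3 and Ank stay within 0.5 of their mean.

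Markers of other cells also differed between these libraries. Monocyte markers summed to 156, 196, 61.9, 39.0 and 77.7 CPM in FPI microglia libraries 1 to 5, the same order as Gpnmb, of which the fibronectin gene Fn1 gave 143, 165, 45.2, 31.2 and 54.0 CPM. Without Fn1 the sums were 13.3, 30.4, 16.7, 7.83 and 23.7 CPM, and that order, with library 2 highest and then 5, 3, 1 and 4, is not the order of Gpnmb. The defining monocyte marker Ly6c2 had no count in any microglia library, and 7 of the 8 listed monocyte markers were found among the identifiers. Gfap, the intermediate filament gene of reactive astrocytes, was at 52.2, 97.2, 26.3, 14.3 and 18.0 CPM in the same libraries, and the summed astrocyte markers were at 642 and 626 CPM in libraries 1 and 2 against 353 to 396 CPM in the other three. Of the border macrophage markers, Mrc1 was at 188, 112, 80.6, 18.9 and 47.4 CPM in FPI and at 271, 177, 271, 19.2 and 11.3 CPM in sham microglia. Folr2, of the same list, was at 11.8, 11.6, 4.37, 3.68 and 11.3 CPM in FPI, the order of Cst7, and at 1.53 to 4.50 CPM in sham microglia. All 10 border macrophage markers had a count in both groups and 1 of them, Folr2, was called higher in FPI. Their sums were 856 to 1377 CPM in sham and 813 to 1181 CPM in FPI microglia, and without Stab1, which holds the largest part, 20.6 to 486 and 28.7 to 298 CPM. The part of these cells in the spread of the 9 genes was not tested.

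Within the 2 series of library names the members differed in how far FPI and sham were apart. In libraries 1 to 3 the mean of Gpnmb was 0.263 CPM in sham and 20.2 CPM in FPI, and in libraries 4 and 5 it was 0.221 and 6.86 CPM. Spp1 went from 4.13 to 125 CPM in libraries 1 to 3 and from 17.7 to 53.0 CPM in libraries 4 and 5, a ratio of 30.2 against 3.00. Csf1 went from 38.3 to 142 CPM in libraries 1 to 3 and was at 57.4 and 58.8 CPM in libraries 4 and 5. Sdc3 and Ank had nearly the same ratio in both series, 2.93 and 2.60 for Sdc3 and 1.51 and 1.64 for Ank. Fitted to libraries 1 to 3 alone, 7 of the 9 genes were called, with Ank just short of the fold at 0.60, and to libraries 4 and 5 alone, with 2 libraries a group, Cpd and Sdc3 were called. In that last fit the log2 fold changes were 4.65 for Gpnmb, 1.64 for Spp1, 1.42 for Cst7, 0.52 for Cd63, 0.04 for Csf1 and 0.72 for Ank. Both fits were chosen after the data had been seen, and whether the effect differed between the series was not tested. With a term for the series 8 of the 9 genes were called.

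In astrocytes none of the 8 genes that passed the filter on low counts was called by edgeR's quasi-likelihood test between FPI and sham, and Cst7 did not pass it. Only 1 of 13741 genes was called (0.00728%), Ctss, which encodes the lysosomal protease cathepsin S and is named here after its value was seen. DESeq2 called none of the 9. Gpnmb and Spp1 had an unadjusted p below 0.05 in edgeR, as had 2.32% of all genes tested, and in DESeq2 Cst7 joined them. Gpnmb held 5.75, 2.70, 1.25, 2.17 and 3.72 CPM in sham and 8.34, 21.6, 5.62, 2.69 and 11.98 CPM in FPI astrocytes. Of the FPI libraries 3 lay above the whole sham range, and the difference on the log2 scale was 1.71 with an SE of 0.54 (unadjusted p = 0.0083 and adjusted p = 0.999, edgeR). Spp1 held 6.01, 10.6, 6.76, 11.7 and 9.23 CPM in sham and 16.9, 33.01, 4.37, 21.2 and 41.3 CPM in FPI astrocytes. Library 3 of FPI was the lowest of all 10 and the other 4 were above every sham library, and the difference on the log2 scale was 1.399 with an SE of 0.46 (unadjusted p = 0.0097 and adjusted p = 0.999, edgeR). The 2 highest FPI libraries for both genes were 2 and 5, whose names share an animal number, and the fit counted them as 2 replicates. With these summed into 1 library the log2 difference was 1.45 for Gpnmb and 1.14 for Spp1, and neither was called.

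Cst7 had no count in any sham astrocyte library and 17 counts over the 5 FPI astrocyte libraries, where its level was 0.211, 0.506, 0.250, 0.819 and 0.324 CPM. A count of 0 allows up to 0.0645 CPM over the sham group, taking 3 counts as the limit. The FPI libraries held 2 to 7 counts each, so that 3 of them, with 2 counts, were under a floor of 3 counts per library. Among the genes that were tested, which leave out Cst7, 0.480% had all FPI libraries above all sham libraries. For the other 6 genes the interval of the change in astrocytes included 0. Their log2 fold changes ran from -0.17 for Ank (95% interval -0.56 to 0.22) to 0.44 for Cd9 (-0.07 to 0.95), so that a change of the size seen for Sdc3 in microglia, 1.49, lay outside the interval of each. Of these 6, Sdc3 had the widest range in FPI astrocytes, from 151 CPM in library 1 to 576 CPM in library 5. In sham astrocytes Cpd was at 449.9 CPM in library 4 and between 139 and 242 CPM in the other 4.

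Microglial markers were low in the astrocyte libraries, and their sums in sham and FPI overlapped. The 10 microglial markers summed to 104 to 183 CPM in sham and 128 to 271 CPM in FPI astrocytes, on average 0.508% and 0.842% of the sums in microglia of the same condition. None of the 10 was at 0 over a whole group, and of 8 tested between FPI and sham astrocytes 0 were called by edgeR, with a median log2 fold change of 3.15. Cx3cr1, the fractalkine receptor gene, was at 0.756 ± 0.570 CPM in sham and 7.87 ± 4.47 CPM in FPI astrocytes (SD, n = 5 each), and Ctss at 1.16 ± 0.896 and 26.5 ± 14.2 CPM (log2 difference 4.52 with an SE of 0.60 and an adjusted p of 0.0798 in edgeR). If the 9 genes came at the share of the markers in each library, Cst7 would have stood at 0.226 to 0.478 CPM in FPI astrocytes, and the counted levels were 0.442 to 3.62 times these. On the same reckoning Gpnmb would have stood at 0.0798 to 0.168 CPM in FPI and at 0.000980 to 0.00172 CPM in sham astrocytes, and Spp1 at 0.516 to 1.09 and 0.0380 to 0.0667 CPM. The counted levels of Gpnmb were 33.7 to 152 times these in FPI astrocytes and those of Spp1 7.52 to 43.8 times, so both exceeded the share of the microglial markers in all 10 astrocyte libraries.

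Markers of other cells were counted in the astrocyte libraries too. In FPI astrocytes Spp1 ordered the libraries as 5, 2, 4, 1 and 3, and the border macrophage markers, which summed to 6.44, 15.9, 4.87, 10.4 and 26.1 CPM in libraries 1 to 5 with Pf4 at 0 in all, gave the same order. Without Stab1 the order of these sums was 5, 4, 2, 1 and 3. The 10 microglial markers summed to 271, 229, 145, 128 and 234 CPM, which is the order of neither Spp1 nor Gpnmb. Of the 10, C1qa alone had the order of Spp1, at 4.01, 15.6, 2.37, 4.91 and 21.8 CPM. Cx3cr1 was at 10.2, 11.9, 2.87, 3.16 and 11.2 CPM, with libraries 2, 5 and 1 highest as for Gpnmb. Sall1 was lowest in library 5, at 63.1 CPM. The sum of oligodendrocyte precursor markers was highest in library 5 too, at 2064 CPM against 1228 to 1613 CPM in the other 4. Of this sum in library 5, Cspg4 gave 806 CPM. The listed markers differed in order. Cspg4, Pdgfra, Tnr and Gpr17, a gene of committed precursors, were highest in library 5, Gpr17 at 205 CPM against 8.62 to 20.2 CPM. Olig1, Olig2, Sox10 and Cspg5 were highest in other libraries. Pericyte and fibroblast markers summed to 328, 1529, 1790, 2381 and 4769 CPM, which is the order of Sdc3, highest in library 5 and lowest in library 1. Gpnmb ordered the libraries as 2, 5, 1, 3 and 4. The part of these cells in the astrocyte levels of the 9 genes was not tested. FPI astrocyte library 3 and FPI microglia library 1 carry the number of the same animal, and Spp1 was the lowest of its group in the first, at 4.37 CPM, and the highest of its group in the second, at 204 CPM.

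**Figure D4:**
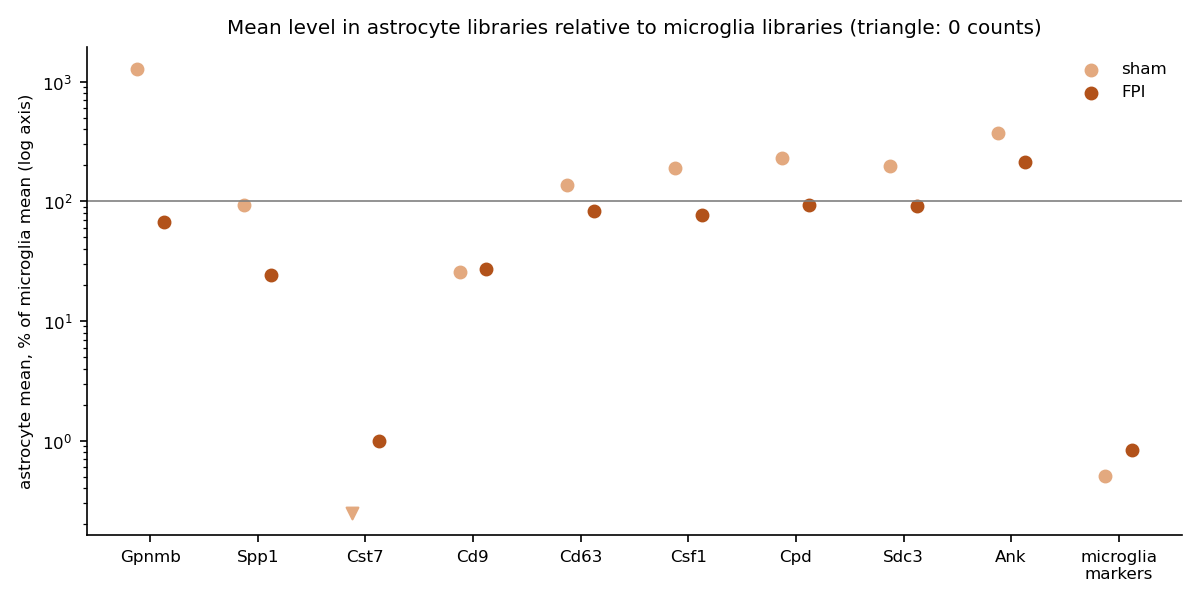
Mean level in astrocyte libraries as a percentage of the mean in microglia libraries of the same condition (vertical axis, log scale) for each gene and for the summed microglial markers, in sham and after FPI. The markers lie at 0.508% and 0.842%, Cst7 at 0 (triangle) and 1.00%, and Ank at 375% and 212%, above the line at 100% in both conditions.

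Between sham microglia and sham astrocytes 7 of the 9 genes were called, as 60.9% of all genes tested were. The sham microglia values are part of the contrast on which the genes were chosen, so this comparison is a description. Cst7 and Cd9 were higher in microglia, as 25.3% of 15077 genes tested were, and Gpnmb, Csf1, Cpd, Sdc3 and Ank were higher in astrocytes, as 35.6% were. Ank was 3.74-fold higher in astrocytes (log2 -1.90, 95% interval -2.23 to -1.57), at means of 145 ± 35.4 CPM against 38.7 ± 3.62 CPM (SD, n = 5 each), and its lowest astrocyte library was at 118 CPM. Cpd was 2.33-fold, Sdc3 1.95-fold and Csf1 1.90-fold higher in astrocytes. Cd9 was 3.86-fold higher in microglia. Cst7 was at least 132-fold higher in microglia, reckoned against 3 counts over the sham astrocyte group. Gpnmb was at 3.12 ± 1.72 CPM in sham astrocytes, 11.7-fold its fitted level in sham microglia, and all 5 astrocyte libraries were above all 5 microglia libraries. Cd63 was 1.36-fold higher in astrocytes, which is short of the fold needed for a call. Spp1 was not told apart between the cell types (log2 0.04, interval -1.30 to 1.37), and without sham microglia library 5, the one that stood apart, the value was -1.07 and also not called.

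The comparison of FPI microglia with FPI astrocytes uses the microglial values on which the genes were chosen and is a description. Spp1, Cst7 and Cd9 were called higher in microglia, against 25.9% of all genes, and Ank alone was called higher in astrocytes, against 35.0%. Ank was at 128 ± 20.3 CPM in FPI astrocytes and at 60.4 ± 6.77 CPM in FPI microglia (SD, n = 5 each), 2.096-fold apart. Spp1 was 4.17-fold and Cd9 3.71-fold higher in microglia, and Cst7 97.4-fold on 17 counts in astrocytes. Gpnmb, Cd63, Csf1, Cpd and Sdc3 had log2 differences between 0.12 and 0.59, all with intervals across 0. That of Gpnmb was wide, from -0.54 to 1.72, and 4 of its 5 FPI astrocyte libraries lay within the range of FPI microglia.

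Whether FPI acted more strongly in microglia was put to the difference of the 2 effects in all 20 libraries. None of the 9 genes was called in edgeR's quasi-likelihood test, as 0.199% of genes were. An unadjusted p below 0.05 was found for 7 of them, all but Cst7 and Cd9, against 7.02% of all genes, and DESeq2 called 3, Gpnmb, Cpd and Ank. The difference holds the microglial values on which the genes were chosen, so these counts are a description. Its size was 4.14 on the log2 scale for Gpnmb (95% interval 2.26 to 6.02) and 2.02 for Spp1 (0.17 to 3.88). For Cpd, Csf1 and Sdc3 it was 1.34, 1.33 and 1.10, and for Cd9 -0.05 (interval -0.67 to 0.56). No size is given for Cst7, which had no count in sham astrocytes, so that its fitted effect there depends on the prior count.

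Per kb of exon the order of the genes differed between cell types. In sham microglia Cd9 came first at 151 CPM per kb, followed by Cd63 at 25.3, Sdc3 at 20.7, Cpd at 12.5, Ank at 10.7, Csf1 at 8.70, Cst7 at 8.65, Spp1 at 5.79 and Gpnmb at 0.0378. In FPI microglia Spp1 stood in the second place at 58.4 ± 49.2 CPM per kb, and differed from Sdc3 at 57.7 ± 12.5 by less than the SD. Gpnmb remained the lowest there at 2.28 ± 1.84 CPM per kb, though its fold was the largest of the 9. In sham astrocytes Sdc3, Ank, Cd9 and Cd63 lay between 34.5 and 40.5 CPM per kb with SDs of 8.23 to 15.2, and their order is not beyond the spread. FPI astrocytes had Sdc3 at 53.1, Cd9 at 52.8, Ank at 35.5, Cd63 at 34.9, Cpd at 26.1, Csf1 at 15.9, Spp1 at 14.2, Gpnmb at 1.54 and Cst7 at 0.428 CPM per kb.

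The receptors and binding partners of these proteins were a list of 22 genes, written with earlier results of these data known. Their share called in microglia was 5.56%, against 2.35% of all genes tested, and rests on 1 gene. Of 18 tested in microglia 1 was called higher and none lower. That gene was Cd44, the receptor of osteopontin and of hyaluronan, at 2.38 ± 1.09 CPM in sham and 12.3 ± 7.90 CPM in FPI microglia (log2 difference 2.38, SE 0.48, adjusted p 0.00959 in edgeR). Csf1r, the receptor of Csf1 and the most abundant of the list, was at 6888 ± 689 and 6734 ± 860 CPM (SD, n = 5 each), a log2 fold change of -0.02 ± 0.13 (SE). In astrocytes none of 21 tested was called by edgeR, and DESeq2 called 1. An unadjusted p below 0.05 in edgeR was found for 5, as for 2.32% of all genes tested. The most abundant there was Ptn, a heparan sulfate binding growth factor, at 1147 ± 178 CPM in sham and 1116 ± 213 CPM in FPI astrocytes (SD, n = 5 each). Between sham microglia and sham astrocytes 11 of 21 were higher in microglia and 8 in astrocytes, as 25.3% and 35.6% of all genes tested were.

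Relatives of the 9 genes were a list of 24 tetraspanins, syndecans, cystatins, carboxypeptidases and others, written with earlier results of these data known. Their share called in microglia was 8.33%, against 2.35% of all genes tested, and rests on 1 gene. Of 12 tested in microglia 1 was called higher and none lower, the carboxypeptidase Cpq, at 11.5 ± 1.98 CPM in sham and 22.9 ± 7.51 CPM in FPI (log2 difference 1.01, SE 0.24, adjusted p 0.0322 in edgeR). Cst3, cystatin C and the most abundant of the list, was at 5164 ± 539 CPM in sham and 4908 ± 1349 CPM in FPI microglia. In astrocytes none of 14 tested was called by edgeR or DESeq2 and none had an unadjusted p below 0.05, with Cst3 again the most abundant at 1799 ± 702 and 1396 ± 261 CPM.

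Ank has few partners in phosphate handling, and of 6 of 7 such genes tested in microglia 1 was called higher. That is 16.7%, against 2.35% of all genes tested, and rests on 1 gene of a list written with earlier results known. Enpp1, which makes pyrophosphate from ATP outside the cell, was at 12.9 ± 2.71 CPM in sham and 26.7 ± 8.24 CPM in FPI microglia (log2 difference 1.06, SE 0.23, adjusted p 0.0164 in edgeR). In astrocytes none of 7 was called by edgeR or DESeq2 and none had an unadjusted p below 0.05, and the phosphate exporter Xpr1, the most abundant, was at 183 ± 87.3 CPM in sham and 155 ± 59.8 CPM in FPI. Of the MiT/TFE factors, which drive Gpnmb and lysosomal genes in other cells, 3 of 4 were tested and none was called by edgeR or DESeq2 in microglia. In edgeR 2 had an unadjusted p below 0.05, as had 11.3% of all genes tested. Tfe3, the most abundant, was at 152 ± 8.21 CPM in sham and at 119 ± 17.2 CPM in FPI microglia (SD, n = 5 each), and Mitf, added here after its value was seen, at 66.3 ± 11.4 and 86.1 ± 5.75 CPM. In astrocytes none of 3 was called by either tool and none had an unadjusted p below 0.05, with Tfeb at 37.5 ± 12.7 and 38.4 ± 12.2 CPM.

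Other DAM genes, a list of 52 written with earlier results of these data known, gave 22 called higher and 1 lower of 47 tested in microglia. That is 48.9%, against 2.35% of all genes tested. The median log2 fold change was 0.89 against -0.01 over all genes. Axl, a receptor for apoptotic cells, rose from 45.5 to 251 CPM (log2 difference 2.48 ± 0.22, SE), Lpl, which frees fatty acids from lipoproteins, from 13.1 ± 4.55 to 121 ± 82.5 CPM, and Clec7a, a receptor for fungal glucans, from 28.9 ± 11.6 to 117 ± 21.98 CPM (SD, n = 5 each). The MHC class I gene H2-D1 rose with a log2 fold change of 1.51 ± 0.16, the lipid carrier Fabp5 with 3.08 ± 0.48 and ferritin heavy chain Fth1 with 0.89 ± 0.14 (SE). Of the 22 genes 15 were highest in FPI library 1 or 2, as were 57.1% of the 259 genes called higher, 36.9% of all genes tested and 5 of the 9 members. Clec7a had the order of Cst7, with 146, 130, 111, 87.2 and 112 CPM in libraries 1 to 5. Lpl was at 241, 173, 83.6, 50.1 and 59.5 CPM, and Fabp5 at 30.9, 28.2, 6.67, 13.7 and 10.5 CPM. The 1 gene that fell was the fructose transporter Slc2a5, at 306 ± 34.8 and 196 ± 62.7 CPM. Slc2a5 is also on the list of homeostatic genes and is counted in both lists. Homeostatic microglial genes had 3 called lower and none higher of 18. That is 16.7%, against 0.214% of all genes tested called lower. The 3 were Slc2a5, P2ry13, an ADP receptor, at 685 ± 115 and 433 ± 122.6 CPM, and Ecscr at 133 ± 15.4 and 87.3 ± 19.8 CPM. In astrocytes none of 36 DAM genes and none of 11 homeostatic genes tested was called by edgeR, while DESeq2 called 1 and 3, all higher in FPI. In edgeR 5 and 4 of them had an unadjusted p below 0.05, as had 2.32% of all genes tested. Apoe, a lipid carrier and the most abundant DAM gene in astrocytes, was at 7986 ± 2874 and 7760 ± 1749 CPM there, and Sparc, the most abundant of the homeostatic list, at 373 ± 97.1 and 380.1 ± 110.7 CPM (SD, n = 5 each).

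The genes most like Gpnmb and Spp1 were sought among 9566 genes with a mean of at least 5 CPM in FPI microglia, by the root mean square difference of log2 CPM over the 10 microglia libraries after centring each gene. For Gpnmb the nearest were Zbp1 at 1.45, Pydc4 at 1.53, Lpl at 1.56, Il1rn at 1.56 and Gm4955 at 1.56. For Spp1 they were Cst7 at 0.965, Cmpk2 at 1.04, Isg15 at 1.10, Gfap at 1.13 and Fabp5 at 1.13. Gpnmb itself was in place 1523 of that order, while Spp1 was in place 36 of the order for Gpnmb. When each gene was also divided by its SD, the nearest to Gpnmb were Slfn5, C4b, Gm4955, Mnda and Oasl2, of which Gm4955 was shared with the first list, and the nearest to Spp1 were Anp32b, Cd22, Rtcb, Tlr2 and Rassf3, none of them shared. On this scale Gpnmb was in place 321 from Spp1, and Spp1 in place 314 from Gpnmb. The measure covers both conditions, so it includes the difference between sham and FPI on which the members were chosen.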

How the data were processed

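Microglia and astrocyte RNA was made into stranded total RNA libraries with a low-input kit, and per the labels and methods reads were demultiplexed with bcl2fastq, aligned to mm10 (GRCm38.p6) with HISAT2 2.1.0 and counted per gene with featureCounts by the authors, who deposited raw counts for 20 libraries. The strand setting and the featureCounts version are not given in the sources used here. The 20 columns of the combined count table equalled the 20 per-sample files, and no column was left without a sample. The authors' own tests used other estimates, which were not used here.

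The counts were analysed as deposited in R 4.3.3 with edgeR 4.0.16 (filterByExpr, TMM factors, quasi-likelihood test, Benjamini-Hochberg adjustment), each FPI against sham contrast on its 10 libraries and the contrasts between cell types and the difference of effects on all 20. A call needed an adjusted p below 0.1 and a log2 fold change beyond 0.6. DESeq2 1.42.0 was an alternative, and others were RLE factors, other count filters, the replicate number as a block, a term for the series of library names, and leaving out each library. Levels are CPM on TMM-normalized totals, log2 values use a prior of 0.5, and levels between genes are per kb of the GENCODE M21 exon union. Python 3.11.15 with pandas 2.3.3 and numpy 2.4.6 made the summaries, and the scripts were tested on simulated data. Intervals are at 95%, and floors (3 counts) cover counting error only. PCR copies were not removed by molecular identifiers in these counts.

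The 9 members and the gene lists were chosen with earlier results of these data known. Named beside the members were the 5 genes nearest to Gpnmb and to Spp1 with at least 5 CPM in FPI microglia, the genes of each list that were called (the 6 of smallest p where over 8 were), the most abundant gene where none was called, and marker genes that stand beside a result.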

Additional observations from a re-analysis of the deposited data

Results flagged for a closer look

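Of 36 gene and group combinations of 5 libraries, 2 had 1 library far from the other 4, by a gap above 0.71 of the whole range, and chance gives about 1 in 20. Spp1 in sham microglia library 5 was at 30.7 CPM against 3.92 to 4.64 CPM in the other 4, a gap of 0.973 of the range. Ank in FPI astrocyte library 5, the library named like microglia, was at 93.2 CPM against 127 to 141 CPM in the other 4, a gap of 0.714 of the range.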

How the results depend on the processing

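Between FPI and sham microglia 285 genes were called, against 121 when all 20 libraries were fitted together and 99 in libraries 4 and 5 alone, an alternative chosen after seeing the data, which also left 2 of 8 members called. Leaving out 1 library gave 177 (without sham or FPI microglia 2) to 423 genes (without FPI microglia 3). The 1 gene called in astrocytes became 39 with DESeq2, 9 with every gene of at least 1 count, 0 with at least 10 counts in every library, 11 with the replicate block, 53 with all 20 libraries and 0 with FPI astrocyte libraries 2 and 5 summed, and 0 to 3 without 1 library (3 without FPI astrocyte 1), with 0 members called throughout. Genes called between cell types fell from 9175 to 4551 in sham and from 9185 to 4467 in FPI with at least 10 counts in every library, where fewer genes were tested. For the difference of effects, 30 genes became 188 with DESeq2, 1 with at least 10 counts in every library, 69 without the astrocyte libraries of the 3 animals with both, and 21 (without sham microglia 2) to 48 (without FPI astrocyte 3) without 1 library, and members called went from 0 to 3, to 1 with every gene of at least 1 count and to 0 to 1 without 1 library, with 1 called without FPI microglia 3 or FPI astrocyte 2. Other causes were not tested. No called log2 fold change of a member changed its sign when 1 library was left out. Some that were not called did: Cd63, Csf1 and Cpd between FPI and sham astrocytes, and Spp1 between the sham groups. The same held for Sdc3 between the FPI groups and for Cd9 in the difference of effects. The replicate block gave 255 genes and 8 members in microglia and changed no count of members called. Same-numbered libraries correlated at -0.05 to 0.11 in microglia. In astrocytes numbers 1, 3, 4 and 5 correlated at 0.21 to 0.42 and number 2 at -0.01, and since not every pair was above 0.1 the block stayed an alternative. Gpnmb in sham microglia (11 counts) and Cst7 in astrocytes (17 counts) are limited by depth.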
